A study of Homo sapiens with 8 samples.

Results

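The Fc receptor genes described are FCGR1A, FCGR1B, FCGR2A, FCGR2B, FCGR2C, FCGR3A, FCGR3B, FCER1G, FCER1A and FCGRT. They were taken by symbol from a table of TPM (the share of all transcripts given to a gene after division by its length). All 10 are in that table, among 26830 gene symbols. Poly(A) RNA of 8 libraries was sequenced from NOMO-1 and MOLM-13, both established human acute myeloid leukaemia lines that carry a fusion of the MLL gene. Each line held either a lentiviral hairpin against ALKBH5 (shALKBH5), an enzyme that removes N6-methyladenosine from RNA, or a non-silencing hairpin (shNS). Each of these 4 groups had 2 libraries: NOMO-1 shNS replicates 1 and 3, NOMO-1 shALKBH5 replicates 2 and 3, and replicates 1 and 3 of both MOLM-13 groups. The comparison asks which transcripts differ when ALKBH5 is knocked down.

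All 8 libraries therefore came from cells that had been infected with lentivirus and selected with puromycin. The series text gives 4 days of selection and the sample protocols give 1 week. Those protocols also name an FTO virus and drugs, neither of which appears among the sample labels. A single hairpin against ALKBH5 was used in each line. No source says whether the libraries of one group were separate cultures, so the p-values rest on library-to-library spread that may be technical. TPM keeps no depth, so the depth behind each value is unknown. In bulk RNA, fewer cells of a type and less RNA per cell cannot be told apart.

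Fc receptors bind the constant part of antibodies and link antibody-coated targets to phagocytes. Activating receptors pass the signal through a tyrosine motif, the ITAM, which FCGR2A carries in its own tail and which FCGR1A, FCGR3A and FCER1A borrow from the adaptor FCER1G. FCGR2B carries an inhibitory motif in its place, and FCGRT, the neonatal Fc receptor, works inside the cell, where it returns bound IgG to the surface.

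ALKBH5 itself stood at 70.44 and 71.81 TPM in NOMO-1 shNS and at 15.11 and 14.15 TPM in NOMO-1 shALKBH5. In MOLM-13 it stood at 45.69 and 45.79 TPM in shNS and at 9.45 and 7.35 TPM in shALKBH5. It fell by 2.21 (SE 0.13, limma adjusted p = 0.00032) and by 2.32 (SE 0.13, adjusted p = 0.00019) on the log2(TPM + 1) scale, so the labels hold in every library. Of the 10 myeloid markers, 9 or 10 were at 1 TPM or more in each library; CD14 was at 0.15 to 0.44 TPM in NOMO-1. Among markers of other cells, CD3E was at most 0.16 TPM and MS4A1 was listed at 0 throughout, while NKG7 stood at 309 to 377 TPM in NOMO-1 and TPSAB1, a mast cell tryptase, at 794.78 to 823.69 TPM in NOMO-1 and at 0 in MOLM-13. The 6 erythroid markers summed to at most 0.6 TPM in 7 libraries and to 14.1 TPM in MOLM-13 shALKBH5 replicate 3, and the 5 epithelial markers to at most 2.3 TPM. The 2 MOLM-13 shALKBH5 libraries were the farthest apart of any group: the log2 difference between libraries over genes of at least 10 TPM had an SD of 0.598, against 0.119 to 0.177 in the other groups. They also differed in interferon-stimulated genes. The median of 26 such genes lay 3.43 above the controls on the log2 scale in replicate 1, with 25 of 26 above, and at -0.42 in replicate 3, with 5 of 26 above. In the NOMO-1 shALKBH5 libraries it lay at 0.12 and 0.21.

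**Figure D1:**
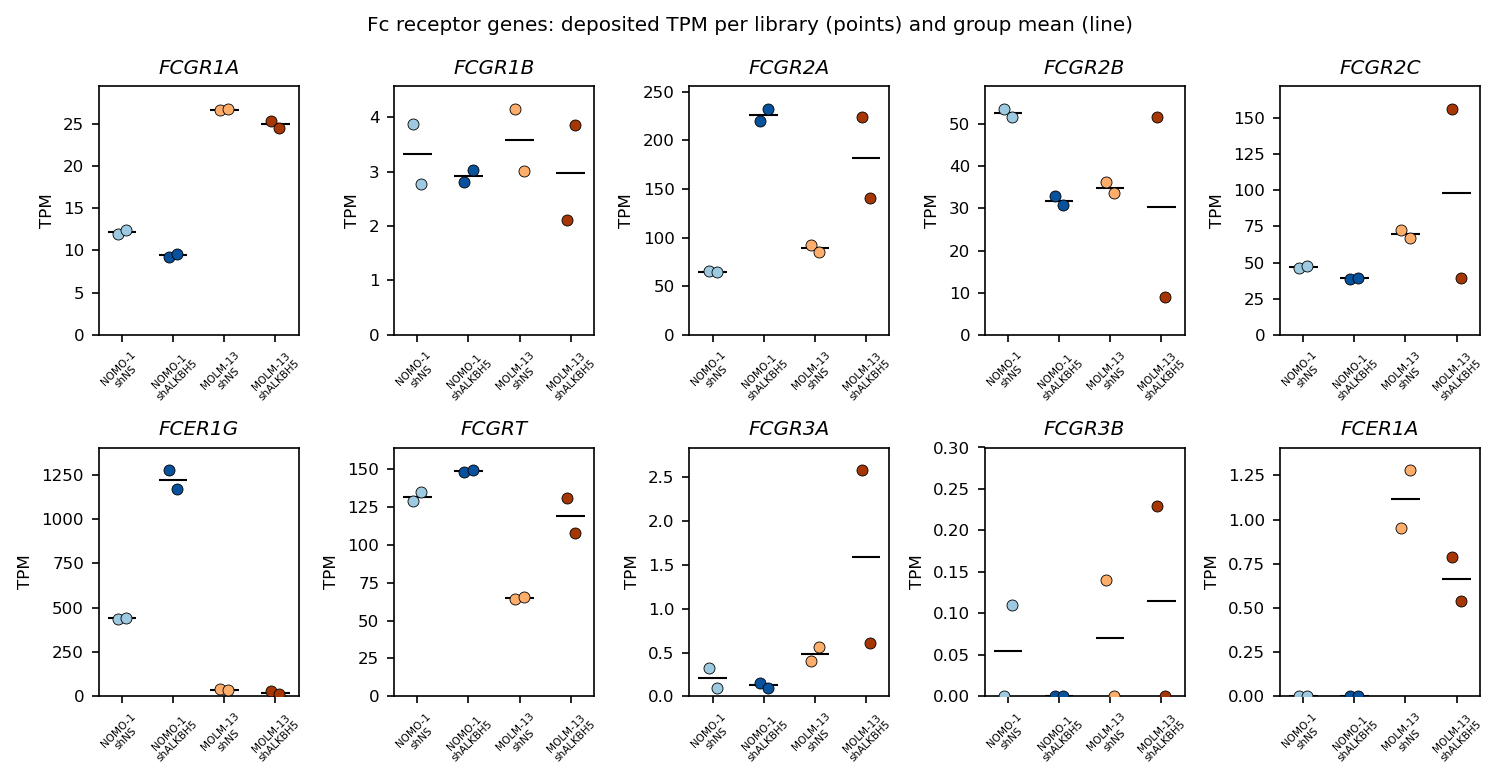
TPM (linear axis from 0, with its own range in each panel) of each Fc receptor gene by group, with 1 point per library and a line at the group mean. FCER1G in NOMO-1 reaches 1275.62 TPM, FCGR3A, FCGR3B and FCER1A stay at or under 2.58 TPM, and the MOLM-13 shALKBH5 points of FCGR2B and FCGR2C lie on either side of their controls.

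Ordered by level in the control cells, FCGR3A, FCGR3B and FCER1A stood lowest in both lines, and the order of the other 7 genes differed between the lines. In NOMO-1 shNS the adaptor FCER1G stood highest at 440 ± 1.71 TPM (SD, n = 2), followed by FCGRT at 131.8 ± 4.26, FCGR2A at 64.8 ± 0.573, FCGR2B at 52.66 ± 1.39, FCGR2C at 46.82 ± 1.09, FCGR1A at 12.15 ± 0.368 and FCGR1B at 3.325 ± 0.785. In MOLM-13 shNS the first was FCGR2A at 88.94 ± 4.95, then FCGR2C at 69.64 ± 4.02, FCGRT at 65.07 ± 0.742, FCER1G at 38.69 ± 0.629, FCGR2B at 34.88 ± 1.88, FCGR1A at 26.67 ± 0.156 and FCGR1B at 3.585 ± 0.813. FCGR2C and FCGRT, neighbours in the MOLM-13 order, lay within 2 TPM of each other in their nearest libraries (66.79 and 65.6 TPM). FCGR3A stayed at or under 0.61 TPM in 7 libraries and reached 2.58 TPM in MOLM-13 shALKBH5 replicate 1. FCGR3B stayed at or under 0.23 TPM, and FCER1A was listed at 0 in all 4 NOMO-1 libraries and lay between 0.54 and 1.28 TPM in MOLM-13. These 3 genes did not pass the filter of 1 TPM in at least 2 libraries and were not tested; 7 of the 10 passed.

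Several members are near-copies of one another, and that bears on their values. FCGR1B (chr1:121087345-121096310) and FCGR1A (chr1:149782671-149792518, GRCh38) are 99.4% identical over 840 aligned coding bases, and 55.4% of the 50-base windows in FCGR1A transcripts also occur in another gene. RefSeq lists FCGR1B as a pseudogene, and a further copy, FCGR1CP (chr1:143874793-143883575), is in the table too. The second cluster lies on the same chromosome: FCGR2A (chr1:161505430-161524013), FCGR3A (chr1:161541759-161550737), FCGR2C (chr1:161581339-161605662), FCGR3B (chr1:161623196-161631963) and FCGR2B (chr1:161663147-161678654). FCER1A (chr1:159289714-159308224) and FCER1G (chr1:161215234-161220699) lie on this chromosome too, and FCGRT lies at chr19:49506816-49526333. FCGR2C joins the start of FCGR2B to the end of FCGR2A, as the ends of the coding sequences show (GENCODE release 29, capitals mark bases that differ from FCGR2C).
FCGR2A, first coding bases: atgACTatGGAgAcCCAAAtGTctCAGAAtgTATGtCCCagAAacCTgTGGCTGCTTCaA
FCGR2B, first coding bases: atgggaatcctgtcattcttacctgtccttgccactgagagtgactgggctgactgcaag
FCGR2C, first coding bases: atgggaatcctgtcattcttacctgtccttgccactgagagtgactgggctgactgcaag
FCGR2A, last coding bases: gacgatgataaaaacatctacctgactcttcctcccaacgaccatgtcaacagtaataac
FCGR2B, last coding bases: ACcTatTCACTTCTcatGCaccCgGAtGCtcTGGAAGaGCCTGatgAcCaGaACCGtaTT
FCGR2C, last coding bases: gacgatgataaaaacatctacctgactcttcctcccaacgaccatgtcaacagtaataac
Over the first 60 coding bases FCGR2B and FCGR2C have 0 differences and FCGR2A has 41. Over the last 60, FCGR2A and FCGR2C have 0 and FCGR2B has 38. Of the 50-base windows, 39.5% in FCGR2C, 15.4% in FCGR2A and 12.5% in FCGR2B are shared with another gene, so the split of reads between these copies is an estimate of RSEM. FCGR3A and FCGR3B share 27.4% and 26% of their windows.

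The activating receptor FCGR2A, which binds IgG complexes and signals through its own ITAM, stood at 65.2 and 64.39 TPM in NOMO-1 shNS and at 219.86 and 232.56 TPM in NOMO-1 shALKBH5. MOLM-13 cells held it at 92.44 and 85.44 TPM in shNS and at 223.59 and 140.75 TPM in shALKBH5. Both shALKBH5 libraries were above both controls in each line, and the knockdown libraries of MOLM-13 lay far from each other. FCGR2A rose 3.49-fold in NOMO-1 (log2 1.79, SE 0.21, limma adjusted p = 0.0013) and 2.05-fold in MOLM-13 (log2 0.99, SE 0.21, adjusted p = 0.011). The NOMO-1 call held in all 18 alternatives, whereas the MOLM-13 call was lost with MOLM-13 fitted alone (adjusted p = 0.095) and without shNS replicate 1 (0.058) or 3 (0.072). The difference between the lines did not pass (log2 0.80, SE 0.29, adjusted p = 0.077). It passed in 5 alternatives: quantile scaling (0.54, adjusted p = 0.019), array weights (0.041), the replicate block (0.03), and without MOLM-13 shALKBH5 replicate 1 (1.13, 0.00018) or 3 (0.47, 0.0063). Some markers of other or more mature cells moved alongside FCGR2A. The 7 neutrophil markers summed to 62.5 and 65.4 TPM in NOMO-1 shNS and to 216.5 and 208.9 TPM in shALKBH5. Of the 5 tested, 4 were called higher in NOMO-1, where 28.6% of all tested genes were. In MOLM-13 the markers summed to 79.6 and 81.0 TPM in shNS and to 141.8 and 94.0 TPM in shALKBH5. There 0 of the 5 were called, against 41.8% of all tested genes. FPR1 alone stood at 0.33 and 0.51 TPM in MOLM-13 shNS and at 47.22 and 0.78 TPM in shALKBH5. Among the neutrophil markers, CAMP stood at 10.31 and 11.02 TPM in NOMO-1 shNS and at 99.76 and 93.81 TPM in shALKBH5. CEACAM8 and LTF stayed under 1 TPM in all 8 libraries. The 10 myeloid markers summed to 1470.8 and 1501.3 against 3233.2 and 3192.1 TPM in NOMO-1, and to 10155.0 and 9537.6 against 20620.5 and 13251.5 TPM in MOLM-13, sums made up mostly of LYZ and CD68. Of these 10, 4 were called higher and 2 lower in NOMO-1 (CD68 1.67, LYZ 1.66, CSF1R 1.02 and CSF2RA 0.59 against CEBPA -0.32 and CD33 -0.29, on the log2 scale). In MOLM-13 3 were called higher and 2 lower (CD68 0.92, LYZ 0.80 and CD33 0.46 against PTPRC -1.01 and ITGAM -0.59). Over all tested genes, 28.6% were called higher and 15.0% lower in NOMO-1, and 10.6% higher and 31.2% lower in MOLM-13. The median change of the 10 was 0.15 in NOMO-1 and 0.46 in MOLM-13, against 0.16 and -0.18 over all tested genes. The part of these markers in the FCGR2A and FCER1G results was not tested.

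In NOMO-1 3 of the 7 tested members were called, FCGR2A and FCER1G higher and FCGR1A lower, where 43.6% of the 14302 tested genes were called. In MOLM-13 2 of 7 were called, FCGR2A and FCGRT, both higher, against 41.8% of all genes. By direction, 28.6% of all genes were called higher and 15.0% lower in NOMO-1, and 10.6% higher and 31.2% lower in MOLM-13. The share in either direction is near the background in NOMO-1 and under it in MOLM-13. The groups did not overlap for 6 of the 7 members in NOMO-1, 3 higher and 3 lower, where 82.6% of all genes did not (52.1% higher, 30.5% lower). They did not overlap for 4 of 7 in MOLM-13, 2 higher and 2 lower, where 67.5% of all genes did not (21.3% higher, 46.2% lower). The median change of the 7 members was -0.13 in NOMO-1 and -0.09 in MOLM-13 on the log2 scale, and that of all tested genes 0.16 and -0.18.

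**Figure D2:**
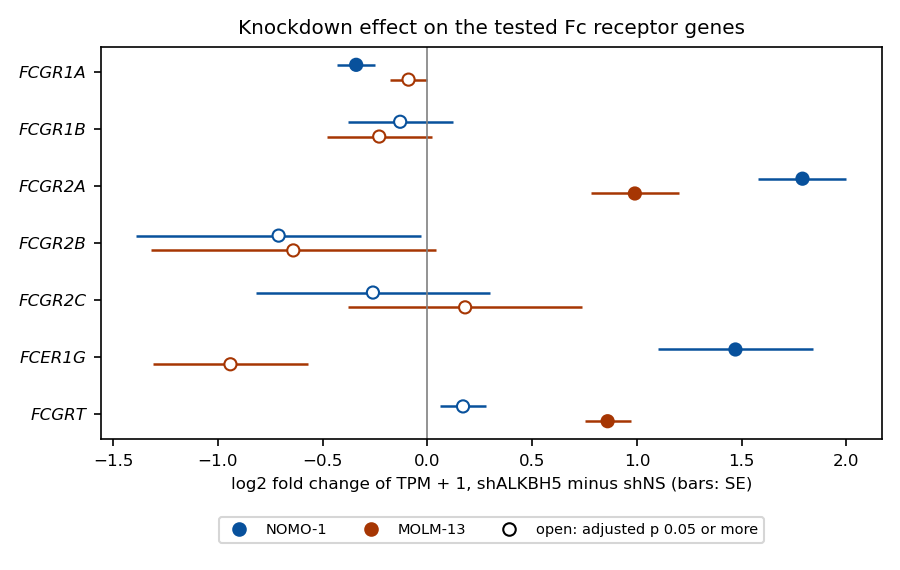
Log2 change of each tested member on knockdown in NOMO-1 and MOLM-13, points with bars of 1 standard error, filled where the adjusted p is below 0.05 and open otherwise. FCGR2A lies to the right of 0 in both lines, while FCER1G lies at 1.47 in NOMO-1 and at -0.94 in MOLM-13.

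FCGR2B, the inhibitory receptor that recruits phosphatases to its motif, stood at 53.65 and 51.68 TPM in NOMO-1 shNS and at 32.97 and 30.74 TPM in NOMO-1 shALKBH5. In MOLM-13 it stood at 36.21 and 33.55 TPM in shNS and at 51.74 and 8.98 TPM in shALKBH5. The NOMO-1 groups did not overlap, and in MOLM-13 shALKBH5 1 library lay above and 1 below both controls. The log2 change of -0.71 (SE 0.68) did not pass the shared fit in NOMO-1 (adjusted p = 0.45), and that of -0.64 (SE 0.68) did not in MOLM-13 (adjusted p = 0.49). With NOMO-1 fitted alone its change passed (adjusted p = 0.0027), as it did with array weights (0.0064), and leaving out MOLM-13 shALKBH5 replicate 1 or 3 also brought the NOMO-1 change past the threshold (adjusted p = 0.00027 and 0.00026). In MOLM-13 the change was -1.85 without replicate 1 and 0.56 without replicate 3, so its sign rests on 1 library.

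FCGR2C, an activating copy that many genomes carry only as a pseudogene, stood at 46.05 and 47.59 TPM in NOMO-1 shNS and at 38.78 and 39.22 TPM in NOMO-1 shALKBH5. The MOLM-13 values were 72.48 and 66.79 TPM in shNS, and at 156.5 and 39.52 TPM in shALKBH5. Its values in the MOLM-13 knockdown libraries fell on either side of the controls, as those of FCGR2B did. Neither line's change passed in the shared fit (NOMO-1 log2 -0.26, SE 0.56, adjusted p = 0.75; MOLM-13 log2 0.18, SE 0.56, adjusted p = 0.84). The NOMO-1 change passed with that line fitted alone (adjusted p = 0.0078) and without MOLM-13 shALKBH5 replicate 1 or 3 (0.0065 and 0.0063). The MOLM-13 change was -0.80 without replicate 1 and 1.16 without replicate 3. FCGR2B, FCGR2C and FCGR3A were high in the library with high interferon-stimulated genes, FCGR2B and FCGR2C low in the other, and FCGR1A was near 25 TPM in both. FCGR2A (223.59 against 140.75 TPM), FCER1G (31.41 against 12.23) and FCGRT (130.72 against 107.87) were also higher in replicate 1 than in replicate 3. FCGR1B was lower there (2.12 against 3.85). The part of the difference in interferon-stimulated genes in these results was not tested.

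The proportion of the activating to the inhibitory copy was higher in every shALKBH5 library than in the controls of its line. FCGR2A made up 39.5% and 39.3% of the summed FCGR2 TPM in NOMO-1 shNS and 75.4% and 76.9% in NOMO-1 shALKBH5. In MOLM-13 it made up 46% in both shNS libraries and 51.8% and 74.4% in shALKBH5. The ratio of FCGR2A to FCGR2B was 1.22 and 1.25 in NOMO-1 shNS and 6.67 and 7.57 in shALKBH5, and in MOLM-13 2.55 in both shNS libraries and 4.32 and 15.7 in shALKBH5. The value of 15.7 belongs to replicate 3, which has the lower FCGR2A of the pair, 140.75 TPM, and FCGR2B at 8.98 TPM. Summed, the FCGR2 genes stood at 164.9 and 163.7 TPM in NOMO-1 shNS and at 291.6 and 302.5 TPM in shALKBH5, and at 201.1 and 185.8 TPM in MOLM-13 shNS and at 431.8 and 189.2 TPM in shALKBH5. The sum did not pass the test in NOMO-1 (log2 0.85, SE 0.34, adjusted p = 0.092) or in MOLM-13 (log2 0.56, SE 0.34, adjusted p = 0.24).

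**Figure D3:**
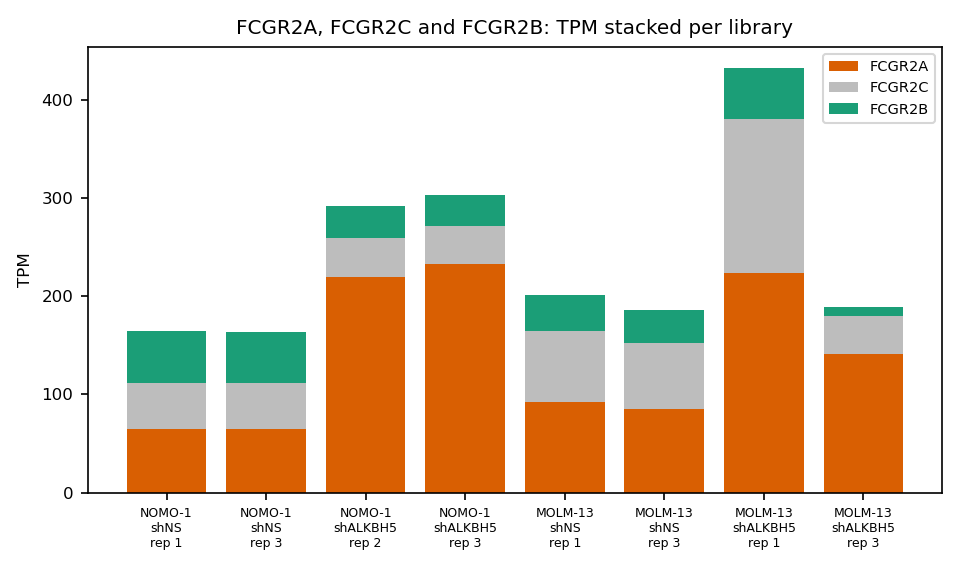
Stacked TPM of FCGR2A, FCGR2B and FCGR2C in each of the 8 libraries. The FCGR2A part grows from about 65 TPM to 219.86 and 232.56 TPM in NOMO-1, and the 2 MOLM-13 knockdown libraries differ in total, 431.8 against 189.2 TPM.

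FCGR1A, the high-affinity receptor CD64, stood at 11.89 and 12.41 TPM in NOMO-1 shNS and at 9.25 and 9.58 TPM in shALKBH5. In MOLM-13 it stood at 26.56 and 26.78 TPM in shNS and at 25.37 and 24.48 TPM in shALKBH5. Both groups lay apart in each line, but the shift was small. FCGR1A fell by 0.34 on the log2 scale in NOMO-1 (SE 0.09, adjusted p = 0.025), while the change of -0.09 (SE 0.09, adjusted p = 0.44) in MOLM-13 did not pass and turned to 0.22 and 0.26 under median-of-ratios and quantile scaling. The NOMO-1 call was lost in 6 of 18 alternatives, each leaving out 1 library (NOMO-1 shNS 1 or 3, shALKBH5 2 or 3, or MOLM-13 shNS 1 or 3), with adjusted p up to 0.15. FCGR1B lay between 2.12 and 4.16 TPM in all 8 libraries and overlapped between the groups (adjusted p = 0.73 in NOMO-1 and 0.52 in MOLM-13). Summed with FCGR1B, the pair fell by 0.30 in NOMO-1 (adjusted p = 0.034), and with FCGR1CP added the change was -0.08 (adjusted p = 0.53). FCGR1CP itself stood at 6.28 and 5.63 TPM in shNS and at 7.84 in both shALKBH5 libraries.

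The adaptor FCER1G, the ITAM-bearing gamma chain shared by several receptors, stood at 438.76 and 441.18 TPM in NOMO-1 shNS and at 1275.62 and 1166.97 TPM in shALKBH5. In the other line the values were 39.13 and 38.24 TPM in shNS and at 31.41 and 12.23 TPM in shALKBH5. The knockdown libraries stood above their controls in NOMO-1 and under them in MOLM-13, and within MOLM-13 shALKBH5 replicate 3 was the lower. FCER1G rose 2.78-fold in NOMO-1 (log2 1.47, SE 0.37, adjusted p = 0.021), and in MOLM-13 the change of -0.94 (SE 0.37, adjusted p = 0.09) did not pass. That change passed with the replicate block (adjusted p = 0.043) and without shALKBH5 replicate 1 (-1.58, 3.4e-05) or 3 (-0.29, 0.01). The NOMO-1 call held in 16 of 20 alternatives. It was lost without any 1 of its 4 libraries, fits that leave 1 library in a group, with log2 changes of 1.41 to 1.53. Its SE comes from the fit shared by all groups, which includes the widely spread MOLM-13 shALKBH5 pair. The effects differed between the lines by 2.41 (SE 0.53, adjusted p = 0.018), and that call was lost in 6 of 19 alternatives, each leaving out a library (adjusted p up to 0.072). Such a line difference was called for 2 of the 7 members, FCER1G and FCGRT, and for 34.6% of all tested genes, 29.7% with the higher effect in NOMO-1 and 4.90% with the lower. In the ranking of all 26830 symbols, FCER1G was 286th and 291st in NOMO-1 shNS, 81st and 96th in shALKBH5, 3511th and 3602nd in MOLM-13 shNS, and 3946th and 6089th in MOLM-13 shALKBH5.

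Of the chains that pair with immune receptors, TYROBP, an adaptor with an ITAM of its own, stood at 11.19 and 11.41 TPM in NOMO-1 shNS and at 29.01 and 24.89 TPM in shALKBH5. In MOLM-13 it stood at 175.17 and 176.32 TPM in shNS and at 526.98 and 308.11 TPM in shALKBH5. It rose 2.38-fold in both lines (log2 1.18, SE 0.24, adjusted p = 0.0092, and 1.19, SE 0.24, adjusted p = 0.0099). The lines thus carried the 2 adaptors in opposite proportion: FCER1G stood at 39.2 and 38.7 times TYROBP in NOMO-1 shNS and at 0.223 and 0.217 times in MOLM-13 shNS. After knockdown that ratio was 44 and 46.9 in NOMO-1 and 0.0596 and 0.0397 in MOLM-13. The TYROBP calls were lost in NOMO-1 without shNS replicate 1 or 3 or shALKBH5 replicate 2 (adjusted p 0.054 to 0.067), and in MOLM-13 with the line fitted alone (0.087) or without either shNS library (0.059 and 0.062). HCST, the adaptor of the NKG2D receptor, rose in both lines too (log2 0.98, adjusted p = 0.0023, and 0.88, adjusted p = 0.0038, SE 0.13 in both; 0.057 with MOLM-13 alone). B2M, the partner of FCGRT, stood at 4094.56 to 4782.2 TPM in NOMO-1 and at 695.12 to 1705.73 TPM in MOLM-13, and its changes did not pass (log2 0.20, adjusted p = 0.71, and -0.20, adjusted p = 0.72). CD247 was at most 0.27 TPM, and MS4A2, the beta chain of the IgE receptor, at most 0.8 TPM.

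**Figure D4:**
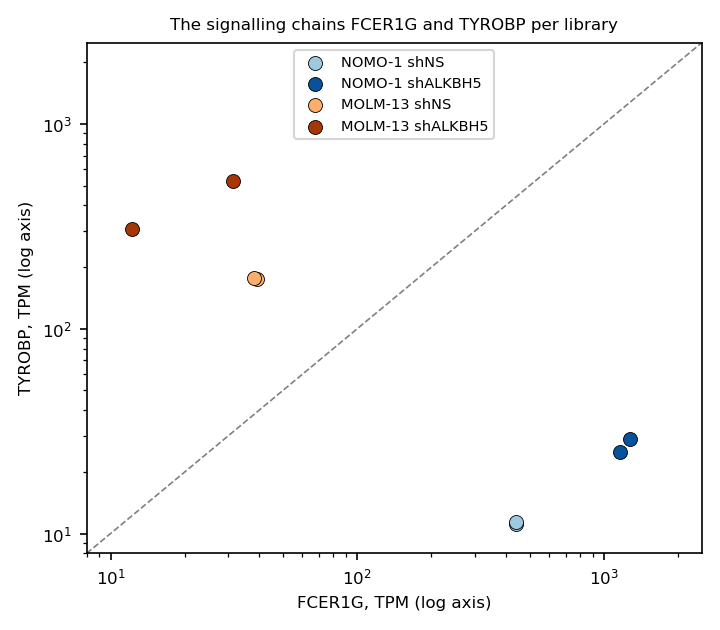
TPM of TYROBP (vertical) against FCER1G (horizontal), both on log axes, with 1 point per library coloured by group and a dashed line of equal level. The 4 NOMO-1 libraries lie under the line, with more FCER1G, and the 4 MOLM-13 libraries above it, with more TYROBP.

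FCGRT stood at 128.74 and 134.77 TPM in NOMO-1 shNS and at 147.85 and 149.27 TPM in shALKBH5. Its MOLM-13 levels were 64.55 and 65.6 TPM in shNS and at 130.72 and 107.87 TPM in shALKBH5. Both MOLM-13 knockdown libraries lay above their controls, and 1 of them lay within the range of the NOMO-1 controls. FCGRT rose 1.83-fold in MOLM-13 (log2 0.86, SE 0.11, adjusted p = 0.0021), a call that held in all 20 alternatives. Its NOMO-1 change of 0.17 (SE 0.11, adjusted p = 0.26) did not pass and was -0.02 under median-of-ratios scaling. It passed at the same size in 4 of 20 alternatives, with NOMO-1 fitted alone (adjusted p = 0.02), with array weights (0.013) and without MOLM-13 shALKBH5 replicate 1 or 3 (0.0086 each). The line difference was -0.69 (SE 0.16, adjusted p = 0.021), lost in 6 of 19 alternatives, each leaving out a library, with adjusted p up to 0.091.

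Between the control cells of the lines, 3 of the 7 tested members were called, where 59.8% of all tested genes were (40.6% higher in NOMO-1, 19.2% lower). The control groups did not overlap for 6 of the 7, where 89.5% of all genes did not (57.9% higher, 31.6% lower). FCER1G was 11.4-fold higher in NOMO-1 (log2 3.47, SE 0.37, adjusted p = 0.00035) and FCGRT 2.02-fold higher (log2 1.01, SE 0.11, adjusted p = 0.00039), and FCGR1A was 2.2-fold lower there (log2 -1.07, SE 0.09, adjusted p = 0.00012). FCGR2A did not pass (log2 -0.45, SE 0.21, adjusted p = 0.1), but was called lower in NOMO-1 in 6 alternatives: median-of-ratios scaling (-0.75, adjusted p = 0.00075), quantile scaling (-0.82, 0.00031), array weights (0.00021), the replicate block (0.038), and without MOLM-13 shALKBH5 replicate 1 or 3 (0.00056 each). FCGR2B (0.58, SE 0.68, adjusted p = 0.49) and FCGR2C (-0.56, SE 0.56, adjusted p = 0.42) did not pass either, and both passed with array weights (0.0055 and 0.0026) and without either of those knockdown libraries (0.00019 to 0.00034). These control libraries are the same ones that the knockdown effects were measured against. Among the other genes of the family, FCAR, the IgA receptor that uses FCER1G, stood at 63.69 and 61.87 TPM in NOMO-1 shNS, at 102.71 and 94.99 TPM in shALKBH5, and between 0.5 and 0.79 TPM in all 4 MOLM-13 libraries. It rose in NOMO-1 (log2 0.65, SE 0.12, adjusted p = 0.0077). FCER2, the low-affinity IgE receptor CD23, stood at 31.46 and 32.5 TPM in NOMO-1 shNS and at 13.92 and 16.4 TPM in shALKBH5, and fell (log2 -1.03, SE 0.25, adjusted p = 0.017). In MOLM-13 FCER2 stood at 47.54 and 44.67 TPM in shNS and at 70.52 and 40.33 TPM in shALKBH5, with no change passing (log2 0.21, adjusted p = 0.55). FCRLA rose in MOLM-13 from 1.18 and 1.09 to 2.65 and 4.91 TPM (log2 1.12, SE 0.22, adjusted p = 0.0095). FCMR, a receptor for IgM, was called higher in NOMO-1 (log2 0.38, adjusted p = 0.03) and lower in MOLM-13 (-0.33, adjusted p = 0.049) at levels of 0.96 to 7.78 TPM, and those calls were lost in 10 and 13 of 20 alternatives. The FCAR call was lost without NOMO-1 shNS replicate 1 or 3 or shALKBH5 replicate 2 (adjusted p 0.051 to 0.061) and with a pseudocount of 0.1 (0.052), that of FCER2 without any 1 of the 4 NOMO-1 libraries (0.058 to 0.1) and that of FCRLA with MOLM-13 alone or without either of its controls (0.055 to 0.085). Of the 14 genes on this list, 6 passed the filter; FCRL1 to FCRL5 were at most 0.07 TPM.

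Receptors that signal through FCER1G were taken from a list of 12, of which 9 are in the table and 5 passed the filter. In NOMO-1 3 of the 5 rose and 0 fell, where 28.6% of all tested genes were called higher and 43.6% either way. In MOLM-13 0 of the 5 passed limma's adjusted threshold and 2 had an unadjusted p under 0.05, where 41.8% of all genes were called. Nothing is read from so few genes about the list. LILRA6, an activating immunoglobulin-like receptor, stood at 5.75 and 4.86 TPM in NOMO-1 shNS and at 29.95 and 28.67 TPM in shALKBH5, and rose (log2 2.27, SE 0.47, adjusted p = 0.0097). LILRA2 rose (log2 0.60, adjusted p = 0.0035) and GP6, the collagen receptor of platelets, rose (log2 0.70, adjusted p = 0.014) in NOMO-1. The LILRA6 call was lost without shNS replicate 3 or either shALKBH5 library (adjusted p 0.054 to 0.062), and that of GP6 without shNS replicate 1 or 3 or shALKBH5 replicate 2 (0.063 to 0.079), with quantile scaling (log2 0.38, adjusted p = 0.053) and with a pseudocount of 0.1 (0.05). LILRA2 kept its call in all 20 alternatives.

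Downstream of activating receptors, kinases of the SRC family and SYK phosphorylate adaptors, which recruit lipid kinases and phospholipases. Of the 28 activating signalling genes, all of which passed the filter, 8 rose and 4 fell in NOMO-1 (median 0.15), and 2 rose and 9 fell in MOLM-13 (median -0.12). Over all tested genes, 28.6% were called higher and 15.0% lower in NOMO-1, and 10.6% higher and 31.2% lower in MOLM-13. The medians over all tested genes were 0.16 and -0.18. The counts of this list lie near those shares, so no shift of the list is read from them. LCP2, the scaffold SLP-76, stood at 176.63 and 175.01 TPM in NOMO-1 shNS and at 412.77 and 406.27 TPM in shALKBH5, and rose in both lines (log2 1.22, adjusted p = 0.0011, and 0.55, adjusted p = 0.019). LAT, another adaptor, rose in NOMO-1 (log2 0.84, adjusted p = 0.0011). PIK3CA, a catalytic subunit of phosphoinositide 3-kinase, fell in both lines (log2 -0.95, adjusted p = 0.0034, and -2.12, adjusted p = 0.0003), and FYN, a SRC-family kinase, fell in MOLM-13 (log2 -1.76, adjusted p = 0.00065). Of the 12 inhibitory signalling genes, 4 rose and 3 fell in NOMO-1 (median 0.21), and 1 rose and 6 fell in MOLM-13 (median -0.38). The shares and medians over all tested genes given above apply here too. UBASH3B, a phosphatase that acts on SYK, stood at 160.62 and 158.25 TPM in NOMO-1 shNS and at 35.81 and 43.57 TPM in shALKBH5, and in MOLM-13 at 21.87 and 20 TPM in shNS and at 5.66 and 6.81 TPM in shALKBH5. It fell in both lines (log2 -1.99, adjusted p = 0.00036, and -1.60, adjusted p = 0.00055), as did PTPN11, the phosphatase SHP2 (log2 -1.80, adjusted p = 0.00069, and -1.62, adjusted p = 0.001). CBLB, a ubiquitin ligase, rose in NOMO-1 (log2 1.68, adjusted p = 0.00099) and fell in MOLM-13 (-1.16, adjusted p = 0.0038), and that difference between the lines passed (2.84, adjusted p = 0.0022). The fall of CBLB in MOLM-13 was lost with that line fitted alone (adjusted p = 0.065).

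**Figure D5:**
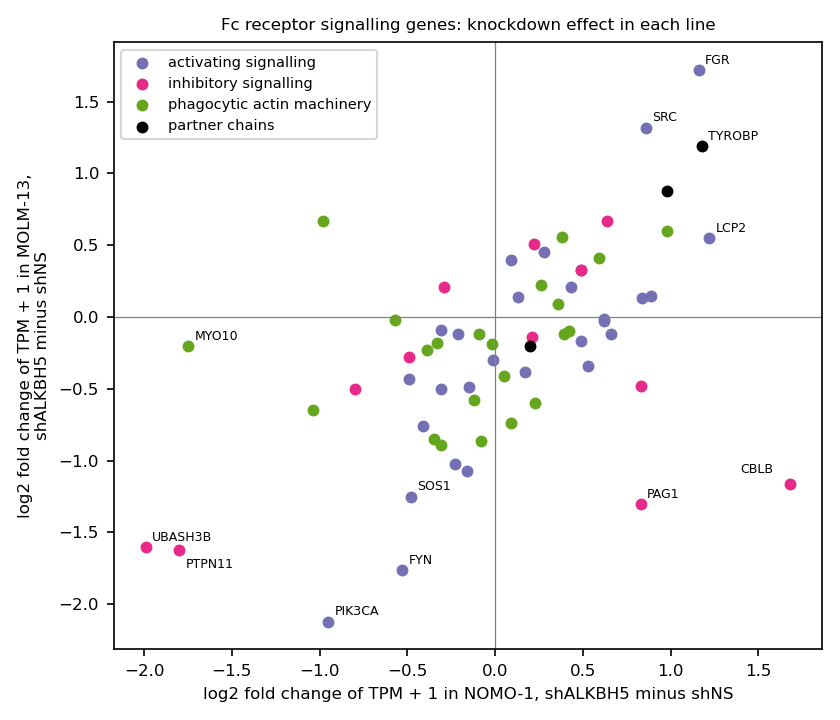
Log2 change on knockdown in NOMO-1 (horizontal) against MOLM-13 (vertical) of log2(TPM + 1), with 1 point per gene of the activating, inhibitory, actin and partner chain lists, coloured by list. UBASH3B and PTPN11 lie at the lower left, and CBLB lies to the right of 0 in NOMO-1 and under 0 in MOLM-13.

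Of the 22 genes of the actin machinery that closes a phagocytic cup, 3 rose and 4 fell in NOMO-1, and 1 rose and 5 fell in MOLM-13. Over all tested genes, 28.6% were called higher and 15.0% lower in NOMO-1, and 10.6% higher and 31.2% lower in MOLM-13. The same shares stand beside the counts of the other lists in this paragraph. ARPC1B, a subunit of the ARP2/3 complex, fell in both lines (log2 -1.04, adjusted p = 0.0012, and -0.65, adjusted p = 0.0072), and MYO10, a motor of filopodia, fell in NOMO-1 (log2 -1.75, adjusted p = 0.00035). The ARPC1B change in MOLM-13 was lost with the line fitted alone (adjusted p = 0.078) and without shNS replicate 3 (0.059). Over these 62 signalling and actin genes, 15 rose and 11 fell in NOMO-1 and 4 rose and 20 fell in MOLM-13, and after median-of-ratios scaling the split was 15 against 25 and 23 against 15. Over all tested genes that scaling moved the median change from 0.16 to 0.01 in NOMO-1 and from -0.18 to 0.05 in MOLM-13, and the share of calls that were higher from 65.6% to 49.5% and from 25.3% to 50.3%. Of the 10 genes known to regulate FCGR1A transcription, 2 rose and 2 fell in NOMO-1 and 1 rose and 1 fell in MOLM-13. CEBPB, a C/EBP factor, rose in MOLM-13 from 11.96 and 11.84 to 29.23 and 31.17 TPM (log2 1.27, adjusted p = 0.0003), and JAK2 rose in NOMO-1 (log2 1.17, adjusted p = 0.013, lost without any 1 of its 4 libraries). Of 22 tested interferon-stimulated genes, 1 was called higher in each line. It was STAT2 in NOMO-1 (log2 1.98, adjusted p = 0.017, also lost without any 1 of the 4). In MOLM-13 it was GBP2 (log2 1.36, adjusted p = 0.006, lost with the line fitted alone, adjusted p = 0.077). The SEs of these genes come from the fit shared with the widely spread MOLM-13 shALKBH5 pair. In NOMO-1 USP18 stood at 4.3 TPM in both shNS libraries and at 18.1 and 18.51 TPM in shALKBH5, and was not called (log2 1.86, SE 1.09). OAS3 stood at 28.16 and 29.15 TPM in shNS and at 11.16 and 12.15 TPM in shALKBH5, and was not called (log2 -1.23, SE 1.54).

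Upstream sequence is shown for 4 members whose levels differed between groups or libraries. Of the 10 members, 8 have an entry in the RefSeq promoter table (GRCh38.p14). The windows run up to 250 bases upstream of the start site and end at the first GENCODE exon. Capitals mark GAGGAA (a PU.1-type core), the interferon-response type (GAAA, any 2 bases, GAAA), TTCNNNGAA (a STAT type) or TTGCNNAA (a C/EBP type), matched on both strands with no overlap between motifs.
FCGR1A upstream window, chr1:149782444-149782670 (+): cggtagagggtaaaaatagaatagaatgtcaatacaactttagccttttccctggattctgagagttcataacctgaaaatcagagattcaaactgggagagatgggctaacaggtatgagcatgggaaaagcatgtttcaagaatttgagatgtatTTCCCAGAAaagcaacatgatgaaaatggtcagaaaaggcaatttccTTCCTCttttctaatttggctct
FCGR2A upstream window, chr1:161505207-161505429 (+): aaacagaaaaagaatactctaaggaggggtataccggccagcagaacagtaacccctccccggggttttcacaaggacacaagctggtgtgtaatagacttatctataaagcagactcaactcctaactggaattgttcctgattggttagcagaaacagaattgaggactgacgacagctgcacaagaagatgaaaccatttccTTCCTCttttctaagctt
FCGR2B upstream window, chr1:161662893-161663142 (+): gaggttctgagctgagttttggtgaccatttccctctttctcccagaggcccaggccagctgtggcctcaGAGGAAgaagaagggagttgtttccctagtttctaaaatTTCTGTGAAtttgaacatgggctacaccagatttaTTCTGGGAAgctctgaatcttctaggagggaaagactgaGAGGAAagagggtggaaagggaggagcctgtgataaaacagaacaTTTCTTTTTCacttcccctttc
FCER1G upstream window, chr1:161215045-161215233 (+): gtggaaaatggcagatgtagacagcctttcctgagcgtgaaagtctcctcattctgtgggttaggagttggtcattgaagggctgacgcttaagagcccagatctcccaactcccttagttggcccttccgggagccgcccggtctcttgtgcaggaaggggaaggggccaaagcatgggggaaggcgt
FCGR1A and FCGR2A each hold 1 GAGGAA on the minus strand, within a 20-base stretch, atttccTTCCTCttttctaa, that occurs in 2 of the 34788 windows of the table, those 2. The FCGR1A window also holds 1 TTCNNNGAA. The FCGR2B window shown, upstream of the start site at 161663143, holds 2 GAGGAA, 2 TTCNNNGAA and 1 match of the interferon-response type. RefSeq lists another FCGR2B start site at 161647243, whose window, not shown, holds none of the 4 motifs. The FCER1G window holds none of the 4. Among all 34788 windows, GAGGAA is in 23.6%, TTCNNNGAA in 6.57%, the interferon-response type in 3.02% and TTGCNNAA in 9.05%. Those windows are the full 250 bases, not cut at an exon, whereas the windows shown are up to 250. The counts given for the members shown are the same over their uncut windows. GGACT, the core of the m6A consensus, was counted in the longest protein-coding transcript of each member. Per kb it occurs 3.38 times in FCER1G (2 matches in 591 bases), 1.66 in FCGR2A, 1.67 in FCGRT, 0.946 in FCGR2B and 0.459 in FCGR1A. Of these members FCGR2B was not called in any comparison. The remaining members, also not called or not tested, have 2.52 (FCGR3B), 2.1 (FCGR3A), 1.99 (FCGR2C), 1.26 (FCGR1B) and 0.858 (FCER1A). The median over 19669 genes is 0.927. A match of letters shows no methylation, which was not measured here.

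Over the 8 libraries, the genes most like each member were ranked by Pearson correlation of log2(TPM + 1) among 8289 genes, as a description of libraries that share line and treatment. FCGR2A was most like SRGN (r = 0.9975), which encodes the granule proteoglycan serglycin, then MIR22HG (0.9933). FCGR2C was most like IFI44 (0.9936), an interferon-stimulated gene at 54.66 TPM in MOLM-13 shALKBH5 replicate 1 and at 0.35 to 4.32 TPM in the other libraries. FCGR2B was most like MARCKSL1 (0.9889), FCGR1A most like NCAM1 (0.9984), FCER1G most like PDHX (0.9994) and FCGRT most like FLNA (0.9944), which encodes filamin A, then NEAT1 (0.9912) and GRN (0.9895).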

How the data were processed

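Per the submitters' processing notes, reads were handled with STAR, RSEM and the build GRCh38 (versions, annotation and strand: not given in the sources used here). The authors deposited 1 table of TPM, with the unit read from column sums that are the same in every library. Groups came from the sample titles. Log2(TPM + 1) values of the 14302 genes that reached 1 TPM in 2 or more libraries were fitted over all 8 libraries with limma 3.58.1 in R 4.3.3 (empirical Bayes with intensity trend, 4 residual degrees of freedom), two-sided, with Benjamini-Hochberg adjustment over all tested genes and a threshold of 0.05. Fold changes are ratios of mean TPM, while log2 changes include the pseudocount of 1 and so understate low genes. Adjusted p-values come from this fit unless an alternative is named. On simulated data for the NOMO-1 comparison over 14302 genes, 64 of 100 changes of log2 1 and 95 of 100 of log2 2 were recovered. The 200 changed genes were drawn only from those above a minimum mean TPM, with independent normal noise at the fitted SDs. In the data 43.6% of tested genes were called in NOMO-1, so recovery there can differ.

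Genes named are the 10 members, ALKBH5, the partner chains, the other Fc receptors, up to 4 genes with the smallest p per line from each other list, and the 3 most similar genes per member. The members and lists were chosen with earlier results of these data known. Alternatives changed the pseudocount (0.1, 0.5), filter, scaling, fit, weights, block, family sums (FCGR1CP added after seeing the data) and library set. Count-based tests were not run because the table holds TPM. Coding sequence came from GENCODE release 29 and promoters from RefSeq.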

Additional observations from a re-analysis of the deposited data

Results flagged for a closer look

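The knockdown effect on FCER1G differed between the lines by 2.41 on the log2 scale (NOMO-1 minus MOLM-13, limma adjusted p = 0.018): the gene stood higher in both NOMO-1 shALKBH5 libraries than in their controls and lower in both MOLM-13 shALKBH5 libraries. The effect on FCGRT differed by -0.69 (adjusted p = 0.021), with the larger increase in MOLM-13.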

How the results depend on the processing

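Of 502 values of members under the alternatives, 422 kept direction and side of the threshold, 25 lost the call, 38 gained one and 17 changed sign. The count of called members was 3 in NOMO-1, against 6 with the line fitted alone and 5 with array weights. It was 1 there with family sums including FCGR1CP. In MOLM-13 it was 2, against 1 with the line alone, with family sums and with FCGR1CP. Family sums merge the FCGR1 genes and the FCGR2 genes into a single row each, so FCGR2A has no row of its own. Those counts are therefore out of fewer rows than 7. The count was 2 for the line difference, against 4 with quantile scaling, and 3 between control lines, against 6 with array weights. Without single libraries these counts ran from 1 to 6, 1 to 5, 0 to 6 and 3 to 6. Of the 62 signalling and actin genes, 26 were called in NOMO-1 (40 with median-of-ratios scaling, 40 with quantile scaling, 50 alone, 51 with array weights), 24 in MOLM-13 (38 with median-of-ratios scaling, 4 alone) and 17 for the line difference (11 without a filter, 30 with median-of-ratios and 27 with quantile scaling); without single libraries they ran from 11 to 51, 10 to 53, 5 to 49 and 22 to 53 (control lines). Over all genes 6242 were called in NOMO-1 (9712 with array weights) and 5972 in MOLM-13 (1684 alone, 2818 with array weights); without single libraries the counts ran from 3490 to 9745, 2665 to 9439, 1635 to 9661 and 6480 to 11202. Signs turned for FCGR1B in NOMO-1 without shNS replicate 1 (0.06, against -0.31 without replicate 3), in MOLM-13 with median-of-ratios scaling (0.03) and without shALKBH5 replicate 1 (0.09, range from -0.54), and between control lines without NOMO-1 shNS replicate 3 or MOLM-13 shNS replicate 1 (0.10 each, range from -0.27). FCGRT in NOMO-1 gave -0.02 and FCGR1A in MOLM-13 0.22 with median-of-ratios scaling, and FCGR1A 0.26 with quantile scaling. In MOLM-13 FCGR2B ran from -1.85 to 0.56 and FCGR2C from -0.80 to 1.16 without single shALKBH5 libraries. The line difference turned for FCGR1B (-0.29 with median-of-ratios scaling, -0.38 with quantile scaling, -0.09, -0.08 and -0.22 without NOMO-1 shNS replicate 3, MOLM-13 shNS replicate 1 and MOLM-13 shALKBH5 replicate 1; highest 0.42), for FCGR2B (-1.27 to 1.14) and FCGR2C (-1.42 to 0.54) without MOLM-13 shALKBH5 libraries, and for ALKBH5 (-0.34 and -0.30 with those scalings, -0.05 to 0.28 without single libraries). The causes were not tested.

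The main fit held no replicate block, because the NOMO-1 groups share only replicate number 3. Same-numbered MOLM-13 libraries deviated together with a correlation of 0.06. With a replicate block for MOLM-13, FCER1G in MOLM-13 passed (limma adjusted p = 0.043), as did the line difference of FCGR2A (0.03) and FCGR2A between control lines (0.038). FCMR in MOLM-13 did not pass with that block (0.061). With 2 libraries a group and no depth, small changes of low genes cannot be resolved.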
